A study of Mus musculus with 10 samples.

Results

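The nuclear genes for the subunits of the mitochondrial respiratory chain were examined in OBCs (osteoblastic lineage cells, which make bone) of leukaemic and control mice. Members were taken by gene symbol: Nduf genes of the a, b, c, s and v series (complex I), Sdha to Sdhd (complex II), Uqcr genes (complex III), Cox4 to Cox8 genes with Cycs (complex IV) and Atp5 genes (complex V). Each was represented by its brightest probe set with 1 annotated symbol. That gave 83 of the 19938 genes tested, with 36 in complex I, 4 in complex II, 8 in complex III, 18 in complex IV and 17 in complex V. Cox7c and Ndufb4, whose probe sets carry more than 1 symbol, were not analysed here.

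The study sorted OBCs from 5 control mice and 5 BA mice, all on a C57BL/6 background, with 1 mouse per array. BA stands for the genotype Scl-tTA::TRE-BCR/ABL, in which a tetracycline transactivator under the Scl promoter, active in blood-forming stem and progenitor cells, drives the BCR/ABL fusion kinase once doxycycline is removed; the labels give the other group as age-matched controls without naming their alleles. Both groups lost doxycycline at 5 weeks of age and were sampled 5 to 6 weeks later, when BA mice had a myeloproliferative disease. Total RNA of 500 to 2300 sorted cells per sample was amplified and hybridised to Affymetrix mouse Gene ST arrays, and the deposited log2 values were compared as BA minus control. The sort used antibodies to CD51, CD31 and Sca-1 and, against blood cells, to CD45 and lineage antigens. The comparison asks how the bone cells of the leukaemic marrow differ from normal ones.

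The respiratory chain passes electrons from NADH (complex I) and succinate (complex II) through ubiquinone to complex III, by cytochrome c to complex IV and on to oxygen, while complexes I, III and IV pump protons and complex V, the ATP synthase, uses the proton gradient to make ATP. Nearly all subunits are nuclear genes with promoters that often hold sites for the factors NRF1, GABP (of the ETS family) and YY1, and a few are made from mitochondrial DNA. Bone-forming cells draw on both glycolysis and respiration, and cartilage cells, which live at low oxygen, rely mostly on glycolysis.

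Osteoblast and cartilage markers were both present, and blood-cell RNA was uneven. The mean of 7 osteoblast markers lay between 9.28 and 10.05 on control and between 8.73 and 9.70 on BA arrays, and that of 8 chondrocyte markers between 10.07 and 10.77 and between 10.39 and 10.81. The mean of 12 pan-haematopoietic markers lay between 6.09 and 7.16 on control arrays and between 6.58 and 7.01 on BA replicates 1 to 4, and stood at 8.43 on BA replicate 5. Neutrophil markers were higher on average in BA cells for 12 of 13 genes (median 0.94), against 37.9% of all genes and 61.9% of the top 25% by mean value. Of the 13, 2 were higher at an unadjusted p under 0.05 (4.13% of all genes were) and none was called. Their mean was 9.56 on BA replicate 5, 8.39 on BA replicate 1 and 8.40 on control replicate 2. Osteoblast markers were lower for 5 of 7 genes, against 62.1% of all genes and 38.1% of the top 25% by mean value. At an unadjusted p under 0.05 there were 4 (5.27% and 3.99% were lower at that p), and none was called. The mean of 7 adipocyte markers did not overlap (5.98 to 6.36 in control and 5.71 to 5.93 in BA cells). Among these Adipoq differed by -2.13, and the others by between -0.29 (Cidec) and 0.12 (Fabp4). The part of these markers in the results was not tested. The macrophage marker mean was 7.26 on BA replicate 5 and at most 6.35 on the other 9 arrays. Of the 12 pan-haematopoietic markers 9 were higher and 3 lower on average in BA cells. With bulk RNA, a change in the share of a cell type and a change in RNA per cell cannot be told apart.

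No respiratory chain gene differed between BA and control cells past the threshold. In limma, with Benjamini-Hochberg adjustment over all genes, 0 of the 83 members had an adjusted p under 0.05 (lowest adjusted p = 0.442, Uqcr11), where 1 gene in all (0.00502%) did. At an unadjusted p under 0.05 there were 9 members (10.8%), against 9.4% of all genes, 14.4% of the top 25% by mean value and 17.1% of the top 10%. As 75 of the 83 members lay in the top 25%, their share was not above that of genes at like levels. Of the 9, Ndufs4, Ndufa3, Ndufa12, Ndufb10, Sdhd and Atp5g3 were higher in BA cells (4.13% of all genes and 10.4% of the top 25% were higher at that p) and Ndufs3, Uqcr11 and Uqcrb lower (5.27% and 3.99%). The control and BA arrays did not overlap for 0 of the 83 members, against 1.67% of all genes (0.567% with BA higher and 1.1% with BA lower).

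The precision differed from gene to gene. The 95% interval of the difference lay within 1 log2 unit of 0 for 47 members, while for the other 36 it reached a change of 2-fold or more in at least 1 direction. The interval extended a median of 0.659 log2 units to each side of the difference. The interval included 0 for 74 of the 83 members.

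**Figure D1:**
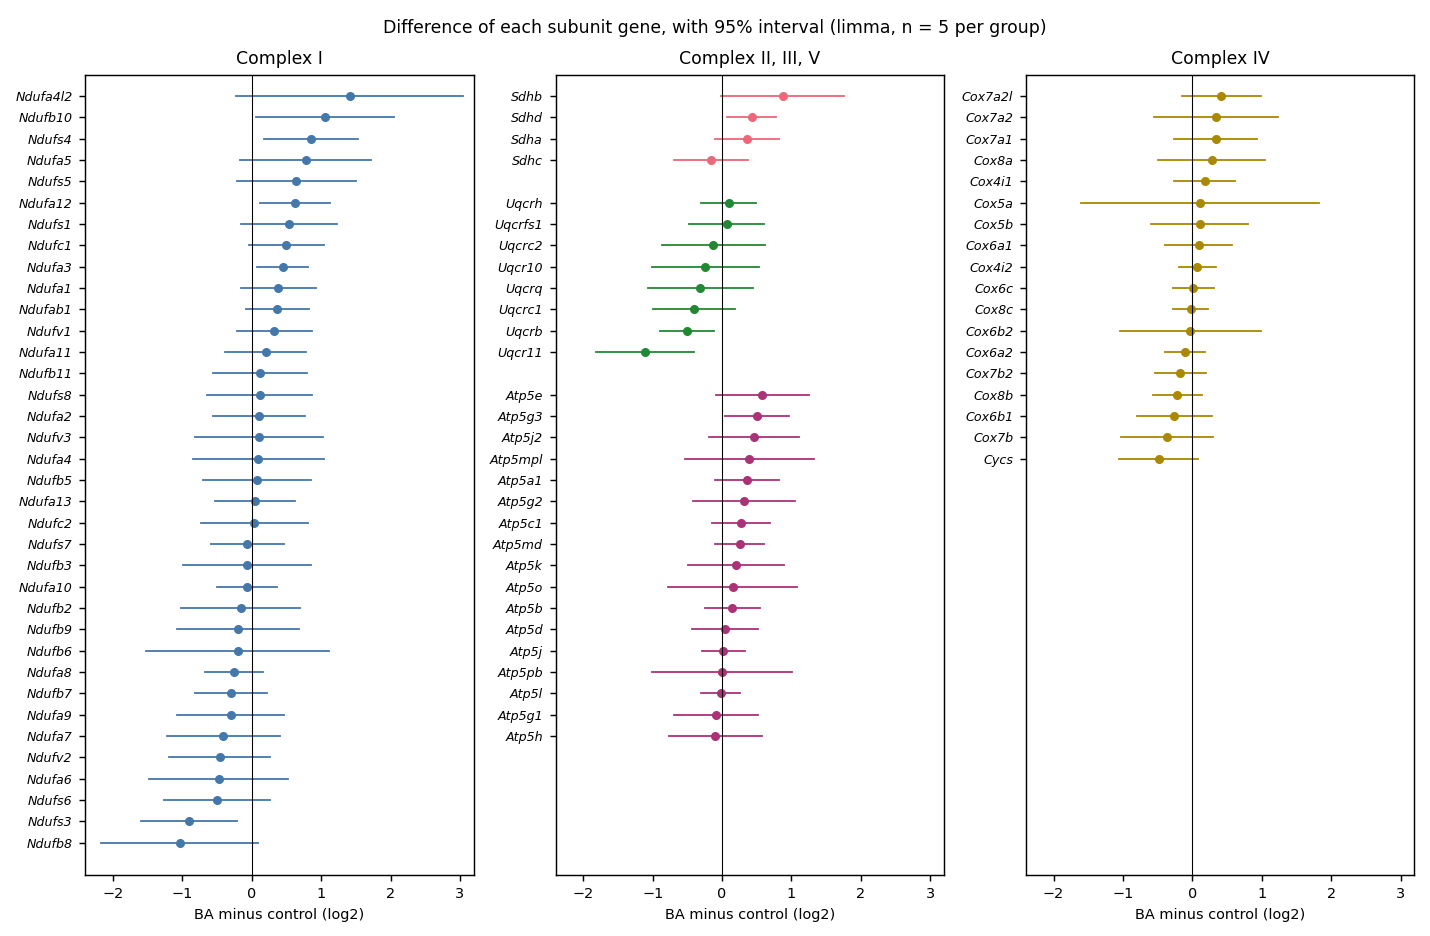
Difference between BA and control cells for each of the 83 subunit genes, on the log2 scale (horizontal axis), with points for the difference and lines for the 95% interval from limma (n = 5 arrays per group). Complexes I and IV spread to both sides of 0, most of complex V lies to the right and most of complex III to the left, and 74 of the 83 intervals include 0.

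The complexes had different medians. The median difference was 0.09 for complex I (21 genes higher and 15 lower in BA cells), 0.39 for complex II (3 and 1), -0.28 for complex III (2 and 6), 0.04 for complex IV (10 and 8) and 0.20 for complex V (13 and 4). The median over all 83 members was 0.07, with 49 higher and 34 lower, a split that became 40 and 43 under quantile normalization. Over all 19938 genes it was -0.06, with 37.9% higher, and it moved with level: among the top 25% of genes by mean value it was 0.10, with 61.9% higher, and among the top 10% it was 0.15, with 69.5% higher. The medians of complexes I and V stand beside these values, and that of complex III had the opposite sign. No test was made between complexes, and members are not replicates of one another.

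Several of these medians rested on single arrays or on the scaling. That of complex III became -0.08 without BA replicate 1 -0.45 without control replicate 4 and -0.48 with the pan-haematopoietic marker mean as a covariate, and under quantile normalization all 8 of its genes were lower. The complex I median changed sign under quantile normalization (-0.016), without BA replicate 5 (-0.012) and with that covariate (-0.040). It was 0.017 with array weights, 0.037 with Xist as a covariate, 0.05 without control replicate 4 and 0.005 without control replicate 5. The complex V median was 0.099 without control replicate 3, 0.12 under quantile normalization and 0.12 with that covariate. For complex IV the median lay between -0.095 (without control replicate 5) and 0.09 (without control replicate 3), was also below 0 without BA replicate 2 or 5, and changed sign under quantile normalization. For all members it was -0.014 under quantile normalization and 0.036 with the pan-haematopoietic covariate, 0.0065 without BA replicate 5, 0.029 without control replicate 5, 0.042 without control replicate 4 and 0.12 without BA replicate 1.

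The means of the complexes by array show where the groups overlapped. Complex I averaged 8.14, 8.26, 8.17, 8.27 and 8.24 on control replicates 1 to 5 and 8.21, 8.23, 8.36, 8.25 and 8.48 on BA replicates 1 to 5. BA replicates 3 and 5 lay above every control array, and the other BA arrays lay among them. Complex III averaged 8.94, 8.32, 8.43, 8.20 and 8.58 in control and 7.73, 8.10, 8.26, 8.31 and 8.47 in BA cells, with BA replicates 1 and 2 below all control arrays. Complex V averaged 9.10, 9.42, 9.20, 9.31 and 9.44 in control and 9.31, 9.42, 9.48, 9.66 and 9.64 in BA cells, and there BA replicates 3, 4 and 5 lay above all control arrays. Complex II was 8.03, 7.08, 7.96, 7.46 and 8.05 in control and 8.21, 8.11, 7.99, 8.15 and 7.99 in BA cells. Its control arrays fell into a low pair (replicates 2 and 4) and 3 within the BA values or just under them. Complex IV lay between 8.36 and 8.70 in control and between 8.19 and 8.80 in BA cells.

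**Figure D2:**
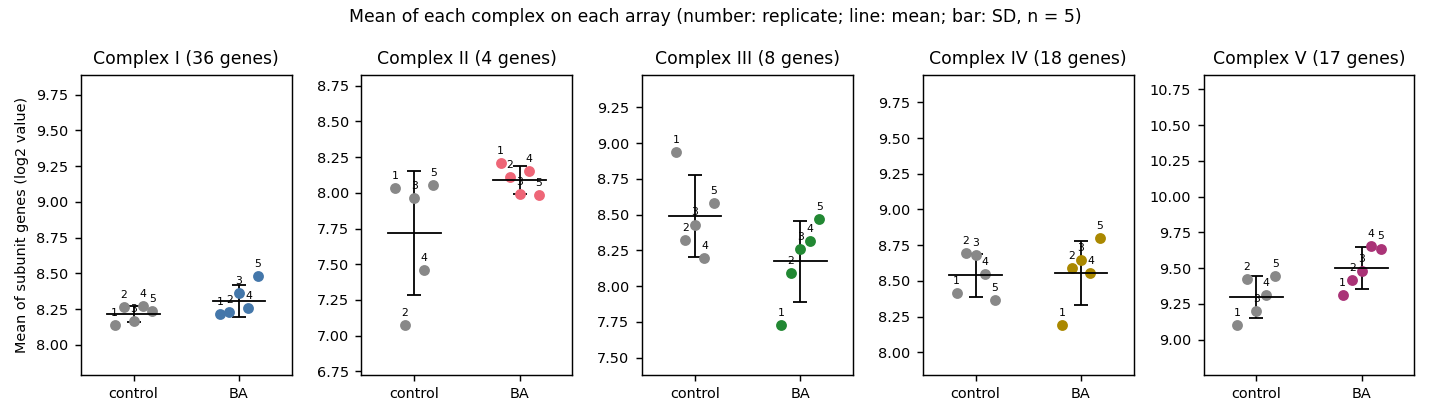
Mean of the subunit genes of each complex on each array (vertical axis, deposited log2 value, each panel spanning the same number of log2 units); points are arrays, marked by replicate number, lines are group means and bars the SD (n = 5). The groups overlap in every complex, and BA replicate 1 is the lowest BA array for complexes I, III, IV and V.

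BA replicate 5, the array with the highest blood-cell markers, also had the highest mean over all 83 members and over complexes I and IV, but not over complexes II, III and V. On it 65 of the 83 members (78.3%) lay above their own median over the 10 arrays, while 35.6% of all genes and 59.6% of the top 10% of genes by level did. The other BA arrays had 31, 40, 43 and 47 members above their own median (replicates 1 to 4) and the control arrays 38, 43, 35, 30 and 41 (replicates 1 to 5). By complex, the members above their own median on BA replicate 5 numbered 27 of 36 in complex I, 2 of 4 in II, 7 of 8 in III, 14 of 18 in IV and 15 of 17 in V. The part of blood-cell RNA in these values was not tested beyond the covariate fit given above.

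**Figure D3:**
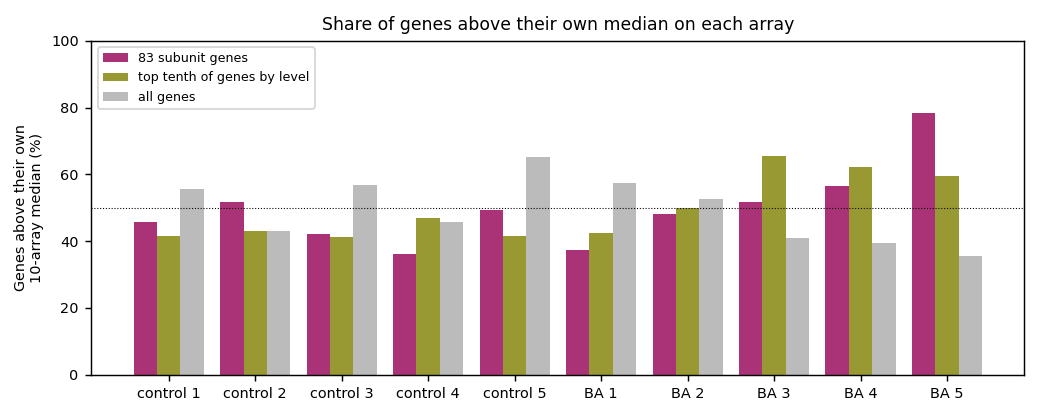
Share of genes above their own median over the 10 arrays (vertical axis, percent) on each array, for the 83 subunit genes, the top 10% of genes by mean level and all genes. The subunit genes reach 78.3% on BA replicate 5 and lie between 36.1% and 56.6% on the other 9 arrays.

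For single genes the spread between mice was more often smaller among BA arrays, as it was for other bright genes. The SD was lower in BA than in control cells for 59 of the 83 members (71.1%), against 51.5% of all genes and 70.0% of the top 10% by level. The median SD over members was 0.559 in control and 0.390 in BA cells. Some means over genes went the other way. The SD of the mean over all members was 0.0304 in control and 0.137 in BA cells, that of complex I 0.0588 and 0.113, and that of complex IV 0.151 and 0.223. For complex II it was lower in BA cells (0.432 and 0.099). For complexes III (0.286 and 0.282) and V (0.145 and 0.146) it was nearly the same in both groups. Ndufs1, the largest iron-sulfur subunit of complex I, stood at 5.67, 7.71, 6.29, 6.80 and 6.99 on control arrays and at 7.23, 7.25, 7.16, 7.32 and 7.17 on BA arrays. Its BA values thus lay within a narrow band inside the control range, and the difference of 0.53 ± 0.31 (SE, n = 5 per group) did not pass (limma adjusted p = 0.563).

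Promoter sequence is a feature that the choice by symbol did not use. RefSeq promoters (GRCm38.p6, 250 bases before to 50 after each start) were found for 68 of the 83 genes, 73 promoters in all. The ETS core CCGGAAG, on either strand, stood in 17 of the 73 member promoters (23.3%) and in 8.86% of 32851 mouse promoters, the NRF1 letters GCGCATGC in 15.1% and 2.71%, and the YY1 core AAGATGGC in 13.7% and 2.75%. At least 1 of the ETS, NRF1 and YY1 letters stood in 32 of the 73 member promoters (43.8%) and in 13.3% of all promoters, so most member promoters held none of them. The core bound by hypoxia-inducible factors, ACGTG, stood in 26.0% and 19.6%. Member promoters were richer in G and C (median 57.7% against 52.7%), which by itself moves such shares, and no test was made. The members with the ETS core had a median difference of 0.09 (10 higher and 7 lower in BA cells) and those without it 0.10. For the NRF1 letters these medians were -0.02 and 0.10, for the YY1 letters 0.01 and 0.10, and for ACGTG 0.10 (11 higher and 7 lower) and 0.08.

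The 120 bases before the start are shown for 2 genes with lower and 2 with higher values in BA cells, since the ETS letters stand before genes on both sides of the comparison, and Sdhb adds an example of the NRF1 letters. The genes were picked for holding such letters in that stretch: Ndufs4, Ndufa12, Ndufb10 and Atp5g3, with higher values, hold none of the letters searched there. Capitals mark the ETS letters in Uqcr11, Ndufs3 and Sdhd and the NRF1 letters in Sdhb, on either strand, and the regions on GRCm38.p6 are chr10:80406822-80406941 (minus strand), chr2:90904722-90904841 (minus strand), chr9:50603850-50603969 (minus strand) and chr4:140961151-140961270 (plus strand).
Uqcr11: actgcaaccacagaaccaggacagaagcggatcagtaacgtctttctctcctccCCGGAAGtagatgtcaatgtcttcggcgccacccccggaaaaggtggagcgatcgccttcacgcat
Ndufs3: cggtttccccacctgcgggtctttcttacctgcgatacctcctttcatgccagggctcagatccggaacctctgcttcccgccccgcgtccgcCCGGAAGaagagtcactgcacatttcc
Sdhd: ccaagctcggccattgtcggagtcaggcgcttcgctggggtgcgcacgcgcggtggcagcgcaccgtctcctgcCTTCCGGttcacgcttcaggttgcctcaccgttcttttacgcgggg
Sdhb: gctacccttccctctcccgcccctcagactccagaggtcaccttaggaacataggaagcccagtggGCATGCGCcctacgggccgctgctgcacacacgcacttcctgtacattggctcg
The letters begin 66 bases before the start in Uqcr11, 27 in Ndufs3, 46 in Sdhd and 54 in Sdhb. A match describes letters only and is not evidence that a factor binds there.

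Complex I, the NADH dehydrogenase, has a catalytic core of flavin and iron-sulfur subunits and many accessory subunits. Of the 6 core genes measured, 3 were higher and 3 lower on average in BA cells, with a median difference of 0.02. Ndufs3, a core subunit of the arm that carries electrons to ubiquinone, stood at 8.62, 8.92, 8.25, 9.33 and 9.99 on control and at 8.32, 7.69, 8.67, 7.87 and 8.03 on BA arrays. BA replicates 2, 4 and 5 lay below every control array and the other two among them. The difference was -0.91 ± 0.31 (SE), at unadjusted p = 0.0152 (limma adjusted p = 0.482), and a second probe set differed by -0.83. The other core genes differed by 0.53 (Ndufs1), 0.32 (Ndufv1, which holds the flavin that takes electrons from NADH), -0.46 (Ndufv2), 0.11 (Ndufs8) and -0.06 (Ndufs7), each with an adjusted p of at least 0.563. That of Ndufs1 was 0.28 without control replicate 1, that of Ndufv1 0.17 without control replicate 3 and 0.18 without BA replicate 2, and that of Ndufv2 -0.22 without control replicate 5 and -0.24 without BA replicate 2. The differences of Ndufs8 and Ndufs7 are small beside their SE of 0.34 and 0.24, and both changed sign with array weights and without BA replicate 1, Ndufs7 also without control replicate 2 and Ndufs8 also with the pan-haematopoietic covariate.

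Of the 28 accessory genes of complex I, 4 (14.3%) had an unadjusted p under 0.05, as did 14.4% of the top 25% of genes by mean value, and all 4 had higher values in BA cells. Ndufs4, an accessory subunit whose loss causes a severe complex I deficiency, stood at 8.56, 8.93, 9.31, 9.18 and 7.60 on control and at 10.04, 9.52, 9.14, 9.44 and 9.71 on BA arrays. All BA arrays but replicate 3 lay above the control range, and the difference was 0.85 ± 0.31 (SE), or 1.81-fold (limma adjusted p = 0.484). Ndufa12 stood at 8.85, 8.02, 8.74, 8.54 and 7.64 on control and at 8.89, 9.17, 8.96, 9.18 and 8.68 on BA arrays, a difference of 0.62 ± 0.23. Here replicate 5 was the BA array that overlapped the controls. Ndufa3 stood at 7.85, 7.81, 7.98, 7.92 and 8.21 on control and at 8.47, 8.68, 7.88, 8.25 and 8.71 on BA arrays, a difference of 0.44 ± 0.16. Its BA replicate 3 lay within the control range. Ndufb10, a subunit of the far end of the membrane arm, stood at 7.19, 8.52, 6.36, 8.29 and 8.67 on control and at 9.36, 8.29, 8.82, 8.38 and 9.42 on BA arrays. Control replicates 1 and 3 stood low, and the difference of 1.05 ± 0.45 was 0.69 without control replicate 3 (limma adjusted p = 0.509 with all arrays).

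None of the other 24 accessory genes had an unadjusted p under 0.05. Ndufb8, another subunit of the membrane arm and a common marker of assembled complex I, stood at 7.85, 8.75, 7.58, 8.29 and 9.79 on control and at 6.33, 7.95, 7.87, 8.44 and 6.49 on BA arrays. BA replicates 1 and 5 lay more than 1 log2 unit below the rest, and the difference of -1.04 ± 0.51 did not pass (limma adjusted p = 0.534). Ndufa5 (0.78 ± 0.42), Ndufs5 (0.64 ± 0.39), Ndufs6 (-0.50 ± 0.34), Ndufc1 (0.50 ± 0.24) and Ndufa6 (-0.48 ± 0.45) followed it in size of difference. Within the Ndufb series, which builds the far membrane arm, 3 of the 9 genes were higher and 6 lower. Within the Ndufa series 10 of 15 were higher, a count that includes Ndufa4 and Ndufa4l2, both higher and not among the accessory genes. The remaining accessory genes differed by between -0.41 (Ndufa7) and 0.38 (Ndufa1).

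**Figure D4:**
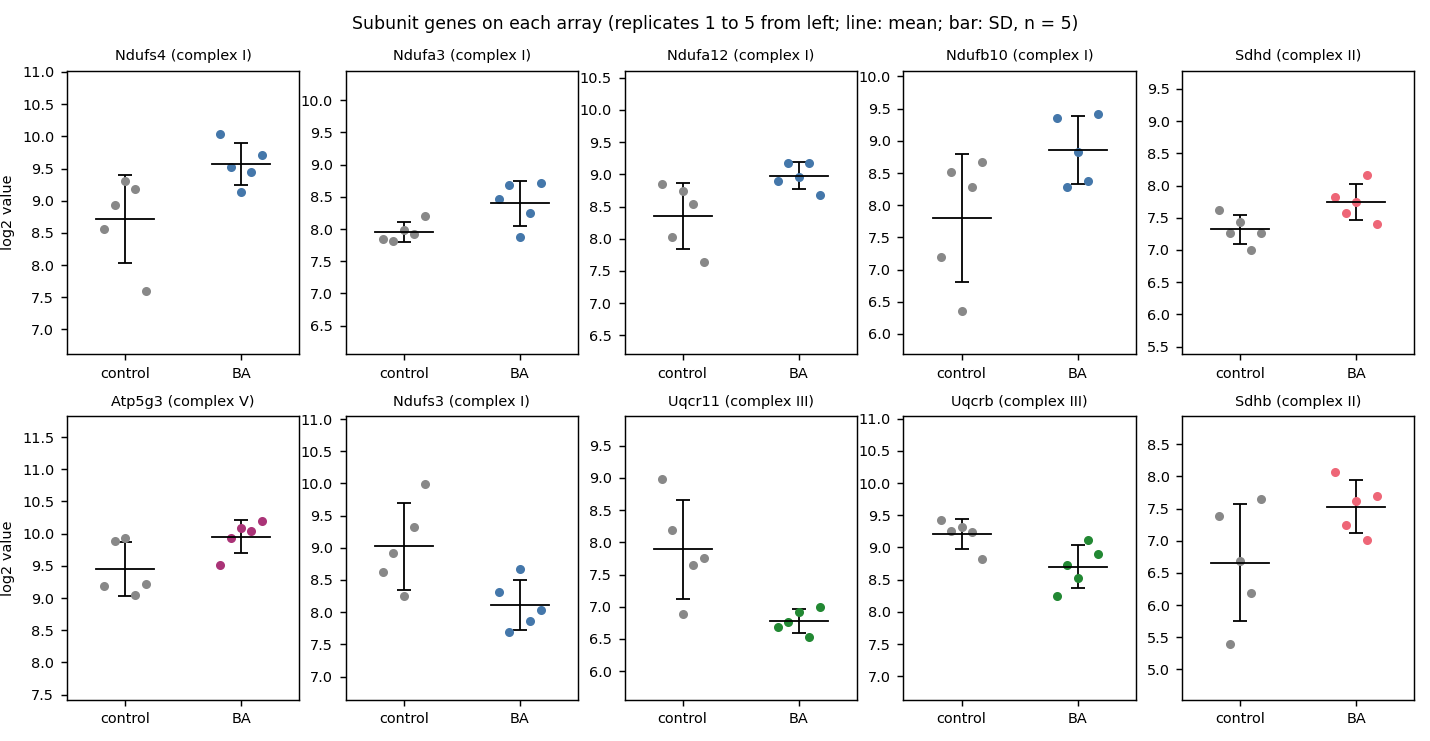
Deposited log2 values (vertical axis, each panel spanning the same number of log2 units) of the 9 subunit genes with an unadjusted p under 0.05 and of Sdhb on each array, with replicates 1 to 5 from left to right, the group mean as a line and the SD as a bar (n = 5). In each panel at least 1 BA array lies within the control range.

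Ndufa4 and its relative Ndufa4l2 carry complex I names, but Ndufa4 is now counted as a subunit of complex IV, and Ndufa4l2 is a target of hypoxia-inducible factor that lowers respiration. Ndufa4l2 stood at 6.39, 7.24, 9.75, 9.81 and 6.29 on control and at 9.52, 8.72, 10.29, 8.81 and 9.18 on BA arrays. The control mice fell into a low set (replicates 1, 2 and 5) and a high pair (3 and 4) that reached the BA values. The difference was 1.41 ± 0.74 (SE), or 2.65-fold, the largest of the 83 in size, with a 95% interval of -0.23 to 3.05 (limma adjusted p = 0.546). Ndufa4 averaged 9.96 ± 0.97 (SD) in control and 10.05 ± 0.44 in BA cells. Its difference of 0.10 changed sign under quantile normalization, array weights and the pan-haematopoietic covariate, and without control replicate 5 (-0.28) or BA replicate 1 or 5.

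Complex II, the succinate dehydrogenase, is the link to the tricarboxylic acid cycle and has 4 subunits, all nuclear. Sdhd, a membrane anchor, stood at 7.62, 7.27, 7.43, 7.0 and 7.27 on control and at 7.82, 7.58, 7.75, 8.17 and 7.41 on BA arrays. BA replicates 1, 3 and 4 lay above the control range, and the difference was 0.43 ± 0.16 (limma adjusted p = 0.484). Sdhb, the iron-sulfur subunit, stood at 7.38, 5.39, 6.68, 6.19 and 7.64 on control and at 8.07, 7.25, 7.62, 7.01 and 7.69 on BA arrays. Control replicates 2 and 4 stood lowest, and without replicate 2 the difference of 0.87 ± 0.40 became 0.56. Sdha, the flavoprotein that oxidises succinate, differed by 0.35 ± 0.21 (0.18 without control replicate 2, the lowest at 7.46), and Sdhc, the other anchor, by -0.16 ± 0.24. None of these 3 had an unadjusted p under 0.05.

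Complex III, the cytochrome bc1 complex, held the member with the smallest p. Uqcr11, its smallest subunit, stood at 8.98, 8.19, 6.89, 7.65 and 7.75 on control and at 6.68, 6.76, 6.92, 6.53 and 7.0 on BA arrays. The BA values sat in a narrow band around the lowest control array (replicate 3), with 3 of 5 below it. The difference was -1.11 ± 0.32 (SE), or 2.16-fold lower in BA cells, at unadjusted p = 0.00543 (limma adjusted p = 0.442), and a second probe set differed by -0.66. Uqcrb, a subunit near the ubiquinone site, stood at 9.43, 9.25, 9.32, 9.24 and 8.82 on control and at 8.24, 8.73, 8.53, 9.11 and 8.90 on BA arrays. Control replicate 5 lay within the BA range and the other control arrays above every BA array, and the difference was -0.51 ± 0.17 (limma adjusted p = 0.482), with its 2 other probe sets at -0.38 and -0.44.

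The rest of complex III differed less. Uqcrfs1, the Rieske iron-sulfur protein and a catalytic nuclear subunit, averaged 6.97 ± 0.53 (SD) and 7.04 ± 0.29, with a difference of 0.06 that changed sign under quantile normalization and without control replicate 2. The core proteins Uqcrc1 and Uqcrc2 differed by -0.40 and -0.12, and Uqcrq, Uqcr10 and Uqcrh by -0.32, -0.24 and 0.09, none with an unadjusted p under 0.05. The haem-bearing subunit Cyc1, which the choice by symbol leaves out, differed by -0.11 ± 0.46. Of the electron carriers beside the chain, Cyct, the testis cytochrome c, differed by -0.20 ± 0.13 and Etfb, of the flavoprotein that feeds electrons from fatty acids, by -0.44 ± 0.35.

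Complex IV, cytochrome c oxidase, had 0 of 18 members with an unadjusted p under 0.05. Cycs, the cytochrome c that carries electrons to it, stood at 10.72, 10.45, 9.79, 10.15 and 10.75 on control and at 9.10, 9.87, 9.91, 10.23 and 10.33 on BA arrays. BA replicate 1 lay below all control arrays, and the difference of -0.48 ± 0.26 was -0.29 without it (limma adjusted p = 0.548 with all arrays). Cox7a2l, a factor that joins complexes III and IV into supercomplexes, differed by 0.42 ± 0.26, with control replicate 1 lowest at 8.24, and by 0.21 without that array. The subunits with a single nuclear gene, Cox5a, Cox5b and Cox6c, differed by 0.11, 0.10 and 0.01, and Cox5a had the widest error of all members (SE 0.77). Cox5a stood at 4.91 on BA replicate 1 and between 8.05 and 8.5 on the other BA arrays. On control replicates 1 and 5 it stood at 6.2 and 6.19, against 8.1 to 8.84 on the other control arrays. Its small difference thus depended on single arrays.

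Several complex IV subunits come as a general isoform and one of restricted use, in muscle, brown fat, testis or lung. The general isoforms Cox4i1, Cox6a1, Cox6b1, Cox7a2, Cox7b and Cox8a differed by 0.18, 0.09, -0.26, 0.34, -0.36 and 0.28. These rested on single arrays: without 1 array they became as small as 0.02 for Cox4i1 (control replicate 2), -0.042 for Cox6b1 (BA replicate 1), 0.08 for Cox7a2 (control replicate 5), -0.22 for Cox7b (control replicate 3) and 0.10 for Cox8a (BA replicate 2). Cox4i2, an isoform of lung and low oxygen, averaged 6.35 ± 0.18 (SD) in control and 6.42 ± 0.16 in BA cells, with a 95% interval of the difference of -0.19 to 0.33. By mean value Cox4i2 lay at percentile 58.6 of all genes and Cox8b at percentile 34.3, near the array medians of 5.91 to 6.02. The restricted isoforms Cox6b2, Cox6a2 and Cox7a1 lay higher, at percentiles 87.0, 85.7 and 71.0. Whether any of these isoforms was expressed was not tested. The heart and muscle isoforms Cox6a2, Cox7a1 and Cox8b differed by -0.11 ± 0.13, 0.33 ± 0.27 and -0.22 ± 0.16. The testis isoforms Cox6b2, Cox7b2 and Cox8c differed by -0.03 ± 0.46, -0.17 ± 0.16 and -0.02 ± 0.11, and Cox7b2 lay between 3.46 and 4.32 on all arrays. Skeletal muscle markers were lower in BA cells on average for 11 of 12 genes, against 62.1% of all genes. Their mean lay between 6.47 and 6.78 in control and between 6.25 and 6.42 in BA cells. Mylpf stood out at 8.51 on control replicate 3 and Tnnc2 at 8.41 on control replicate 4, while Tnni2 (-0.61) was lower on every BA array than on any control array. The part of muscle RNA in the values of Cox6a2, Cox7a1 and Cox8b was not tested. The sign of the differences of Cox6a1, Cox6a2 and Cox6b2 depended on the setting or on single arrays, and the difference of Cox7a1 was 0.16 without BA replicate 3.

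**Figure D5:**
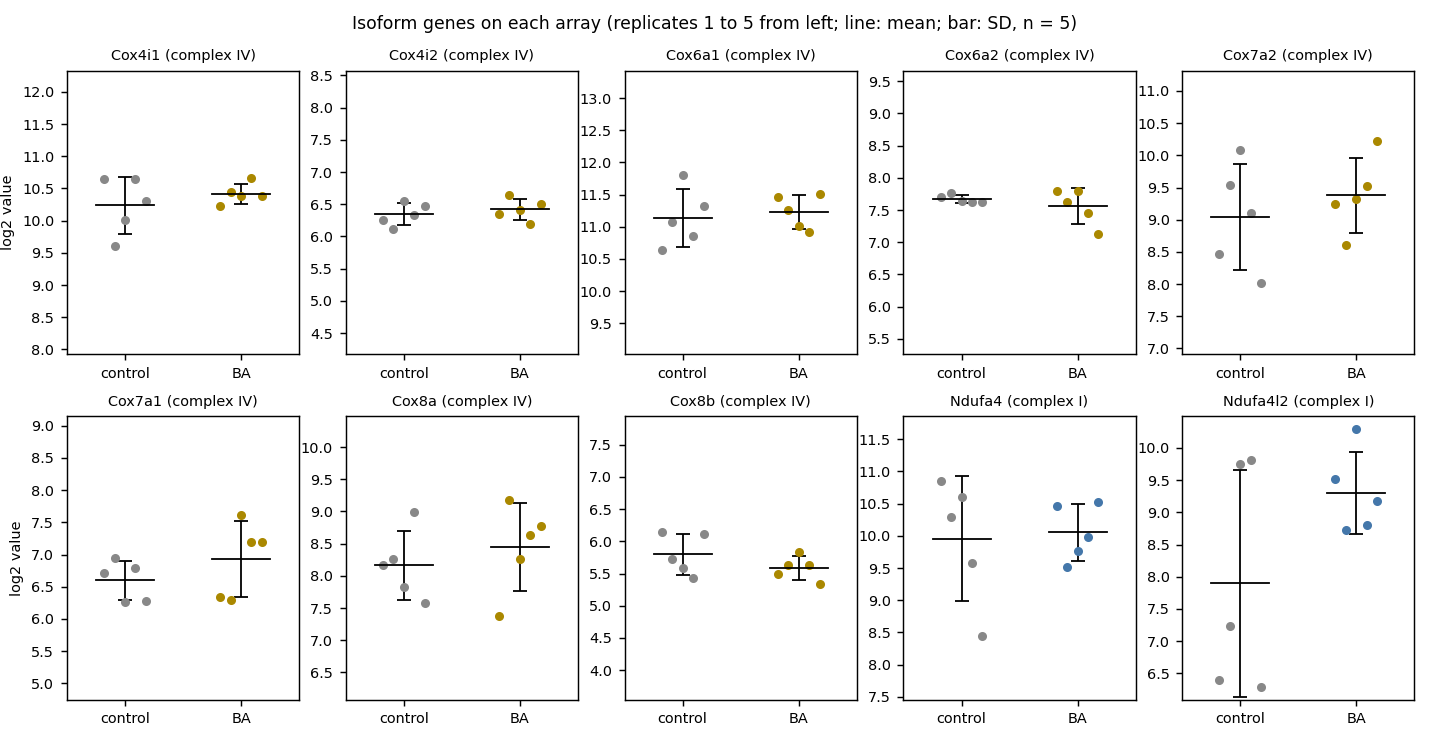
Deposited log2 values (vertical axis, each panel spanning the same number of log2 units) of general and restricted isoform genes of complex IV and of Ndufa4 and Ndufa4l2 on each array, with replicates 1 to 5 from left to right, the group mean as a line and the SD as a bar (n = 5). The restricted isoforms Cox4i2 and Cox8b stay within narrow bands near the array medians (5.91 to 6.02). The restricted isoforms Cox6a2 and Cox7a1 have higher means. Ndufa4l2 spans 6.29 to 9.81 among control arrays.

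Complex V, the ATP synthase, had 13 of its 17 genes higher in BA cells, among them all 5 of the catalytic head (median 0.27). The head subunits Atp5a1 and Atp5b, which form the sites of ATP synthesis, averaged 9.13 ± 0.46 and 10.31 ± 0.40 (SD) in control and 9.48 ± 0.17 and 10.46 ± 0.10 in BA cells, differences of 0.36 ± 0.21 and 0.14 ± 0.18 (SE). Without control replicate 5 they became 0.19 and -0.0095. The other head genes Atp5e, Atp5c1 and Atp5d differed by 0.58, 0.27 and 0.04. None of the 5 had an unadjusted p under 0.05.

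The proton-carrying ring of complex V is made of 1 protein encoded by 3 genes, and these differed unequally. Atp5g3 stood at 9.18, 9.88, 9.93, 9.05 and 9.21 on control and at 9.52, 9.93, 10.08, 10.04 and 10.19 on BA arrays. BA replicates 3, 4 and 5 lay above the control range, and the difference was 0.50 ± 0.21 (unadjusted p = 0.0343, limma adjusted p = 0.507). Atp5g2 differed by 0.32 ± 0.33, with its other 2 probe sets alike (0.07 without control replicate 3 and 0.59 without control replicate 5), and Atp5g1 by -0.09 ± 0.27, with a sign that changed without control replicate 3 (0.12) or 5 (0.026). The difference between these genes was not tested. The peripheral stalk genes Atp5pb, Atp5h, Atp5j and Atp5o differed by -0.004, -0.10, 0.02 and 0.15, and the membrane accessory genes Atp5j2, Atp5mpl, Atp5md, Atp5k and Atp5l by 0.46, 0.39, 0.26, 0.20 and -0.02. The 6 probe sets of Atp5l lay between -0.13 and -0.02.

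Of the 83 members 18 had more than 1 probe set, and for 14 of them the brightest and the next had differences of the same sign. The probe sets of Ndufb11 (0.12 and -0.16), Cox6c (0.01 and -0.03), Atp5h (-0.10 and 0.03) and Atp5pb (-0.004 and 0.20) differed in sign. Subunit genes have many near-identical copies in the genome, and whether a probe set also measures RNA of such copies was not tested.

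Other genes of the pathway, from lists drawn up by function, gave 0 calls over all genes as well. Of 44 assembly factors measured for the 5 complexes, 25 (56.8%) were higher and 19 lower in BA cells (median 0.05). At an unadjusted p under 0.05 there was 1 (2.27%, against 9.4% of all genes). That gene was Uqcc2, an assembly factor of complex III, with a difference of 1.09 ± 0.49, whereas the subunit Uqcr11 of the same complex had lower values. Uqcc2 stood at 6.4 and 5.95 on control replicates 1 and 5, between 7.4 and 8.7 on the other control arrays and between 7.74 and 8.85 on BA arrays. Surf1 and Cox17, which assemble complex IV and bring it copper, differed by 0.98 ± 0.46 and 1.03 ± 0.57 (Cox17 stood at 6.67 on control replicate 5 and between 9.36 and 10.01 on the other control arrays, and Surf1 at 8.94 on BA replicate 4 and between 6.54 and 7.10 on the other BA arrays), and Ndufaf7 of complex I by 0.57 ± 0.29. Of the subunits from mitochondrial DNA, COX2 averaged 12.11 ± 0.11 (SD) and 12.00 ± 0.10 and ND3 11.30 ± 0.08 and 11.33 ± 0.05, differences of -0.11 ± 0.09 and 0.03 ± 0.08 (SE).

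Regulators of mitochondrial biogenesis had 9 of 17 genes higher (median 0.01). Pprc1, a co-activator of the PGC-1 family, differed by 0.53 ± 0.17 and Gabpb1, a subunit of GABP, by 1.08 ± 0.45. Polg2, a subunit of the mitochondrial DNA polymerase, differed by -0.73 ± 0.24. Each of these 3 had an unadjusted p under 0.05 (17.6% of the list, against 9.4% of all genes). None had an adjusted one (lowest limma adjusted p = 0.471). Gabpb1 stood highest on BA replicate 1 (8.35), and its BA replicates 2 and 3 lay within the control range of 5.14 to 6.43. Genes of the tricarboxylic acid cycle and pyruvate dehydrogenase, counted together with the kinases Pdk1 to Pdk4, were higher for 18 of 21 (median 0.23). Pdk1, a kinase that shuts pyruvate out of the cycle, differed by 0.95 ± 0.37 and Pdk2 by -0.33 ± 0.11. The arrays of the groups did not overlap for Pdk2. Genes of mitochondrial import and the outer membrane were higher for 11 of 13 (median 0.27), and Tomm70a (0.52 ± 0.22) had the smallest p, while Timm23 differed more, with a wider error (0.90 ± 0.49). Of 8 oxygen-regulated modifiers of respiration 7 were higher (median 0.40), among them the glucose transporter Slc2a1 (1.30 ± 0.27, limma adjusted p = 0.384), whose groups did not overlap either, while Iscu, a scaffold for iron-sulfur clusters, differed by -1.0 ± 0.47. Of the genes in these lists, 3 of 17, 11 of 21, 8 of 13 and 6 of 8 lay in the top 25% by level. In that top 25% the median over genes was 0.10 and 61.9% of genes were higher. Over all genes 37.9% were higher, and the groups did not overlap for 1.67%. Pdk1 was counted in both the cycle list and the oxygen list.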

How the data were processed

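OBC RNA from 5 control and 5 BA mice was measured on 10 arrays. The authors deposited log2 expression values for 35557 probe sets. GCRMA is the tool named, per the submitters' processing notes, without a version; it subtracts a sequence-based background and makes arrays alike in distribution. No header states the log base, which was taken from the values (1.21 to 13.7). Precision is limited by the 10 arrays, whose medians lay between 5.91 and 6.02.

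Names came from the platform annotation, where 21789 probe sets have 1 symbol. The brightest probe set stood for each gene, giving 19938 genes, with no filter on level. All 83 members matched RefSeq (GRCm38.p6) by gene ID. The groups were compared in limma 3.58.1 (R 4.3.3; two-sided, no covariate), with Benjamini-Hochberg adjustment over all genes and a threshold of 0.05; the script was tested on simulated data. Medians and counts over a complex carry no test. Members and lists were chosen with earlier results of these data known, and 197 of 226 list entries matched a gene.

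Named with values were, per complex, members with an unadjusted p under 0.05 (else the 2 smallest), isoform pairs, core subunits and genes with discordant probe sets, and up to 3 genes of each pathway list; other members appear by their difference, and the array values of Ndufb8 were added after they were seen. Alternatives were a replicate block, quantile normalization, median centring, genes above the median level, trended robust eBayes, array weights, probe set means, a threshold of 0.10, pan-haematopoietic and Xist covariates, and each array left out. Same-numbered arrays did not deviate together (Pearson's r across genes from -0.0973 to 0.112), so the numbers were not taken as pairs.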

Additional observations from a re-analysis of the deposited data

Results flagged for a closer look

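For 37 of the members and for the complex means, the values of 84 groups of 5 arrays were checked for an array far from the others. In 2 of these groups such an array was found, where chance alone gives about 1 in 20. The remaining members, among them Cox5a and Ndufb8, were not checked in this way. Cox7b, a subunit of complex IV, stood at 9.11 on control replicate 1 against 10.39 to 10.86 on the other control arrays. Without that array its difference between BA and control cells was -0.66, against -0.36 with it. Uqcrfs1, the Rieske protein of complex III, stood at 6.52 on BA replicate 1 against 7.10 to 7.22 on the other BA arrays.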

How the results depend on the processing

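Under none of the alternatives, including a threshold of 0.10, was any of the 83 members called, and the number at an unadjusted p under 0.05 lay between 6 and 12. The lowest adjusted p of any member over the alternatives was 0.355. The replicate number as a block called 0 genes in all (1 without it) and left the complex medians as they were; 1 of 5 BA arrays deviated most like the control array of its own number. Genes called were 0 among genes above the median level, 2 with the pan-haematopoietic and 2 with the Xist covariate, and 0 to 13 with 1 array left out. The complex I median was -0.016 under quantile normalization, -0.040 with the pan-haematopoietic covariate and -0.012 to 0.11 with 1 array left out.

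Small differences changed sign, none of them called. Under quantile normalization these were Cox6a1 (-0.014), Ndufa4 (-0.017) and Uqcrfs1 (-0.0088), with array weights Ndufa4 (-0.079), Ndufs7 (0.0057) and Ndufs8 (-0.022), with the pan-haematopoietic covariate Cox6a2 (0.0061), Ndufa4 (-0.13), Atp5g1 (0.040) and Ndufs8 (-0.064), and with the Xist covariate Cox6b2 (0.091). With 1 array left out the differences ranged from -0.036 to 0.26 for Cox6a1, -0.17 to 5e-04 for Cox6a2, -0.30 to 0.24 for Cox6b2, -0.28 to 0.32 for Ndufa4, -0.23 to 0.12 for Atp5g1, -0.25 to 0.091 for Ndufs7, -0.21 to 0.35 for Ndufs8, -0.060 to 0.28 for Uqcrfs1 and -0.0095 to 0.24 for Atp5b. The other 28 of the 37 members followed kept their sign in all of these settings. With 1 array left out, the differences of 28 of the 37 moved by over 1.5 times, and those of the other 9 (Ndufa3, Ndufa12, Ndufs3, Ndufs4, Ndufa4l2, Sdhd, Uqcr11, Uqcrb and Atp5g3) did not. The cause was not tested.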
